A study of Mus musculus with 12 samples.

Results

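The comparison set 8 RNA-seq libraries from cells in which either Rbmx or Rbmxl1 was knocked down, taken as 1 group, against 4 libraries from cells that received a scramble control. All 12 libraries of the series were members: 4 of Rbmx knockdown, 4 of Rbmxl1 knockdown and 4 of scramble. Calls were made with edgeR's quasi-likelihood test, with the replicate number as a block, at a p below 0.05 after Benjamini-Hochberg adjustment, and a called gene was counted as shared only if the mean of each knockdown group lay on the same side of scramble. The members were chosen by label and not by measured values, although earlier results of these data were known when the comparison was chosen.

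All libraries came from Neuro-2a, a mouse neuroblastoma line, and all cells carried the same GFP plasmid (1 µg), which allowed transfected cells to be sorted 48 hours after lipofection. The remaining 3 µg of plasmid expressed artificial microRNAs in a miR30 backbone under a CAG promoter: a scramble sequence, or 3 pooled plasmids aimed at Rbmx, or 2 pooled plasmids aimed at Rbmxl1. Total RNA was depleted of ribosomal RNA before stranded library preparation. Replicates 1 to 4 are named as biological in every group, but what a number stands for is not given in the sources used here, so p-values measure the spread between these libraries of 1 cell line.

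RBMX, also called hnRNP G, is a nuclear RNA-binding protein of the hnRNP class encoded on the X chromosome. It binds nascent transcripts, takes part in the choice of splice sites and is known for keeping very long exons of genome-maintenance genes intact. Rbmxl1 is an autosomal retrocopy, a gene that arose by reverse transcription of the Rbmx messenger RNA, and encodes a closely similar protein. The title of the series refers to compensation by this retrocopy, and pooling both knockdowns addresses which transcripts move together when either copy is reduced.

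The targeted genes do not belong to the shared response, because each was reduced in 1 of the knockdown groups alone. Rbmx was at 57.6, 67.8, 72.2 and 73.3 CPM (counts per 1000000 reads in genes) in scramble replicates 1 to 4, at 22.2, 24.7, 31.0 and 32.6 CPM in Rbmx knockdown, and at 81.9, 90.0, 85.3 and 88.0 CPM in Rbmxl1 knockdown. The 4 Rbmx knockdown libraries were below and the 4 Rbmxl1 knockdown libraries above every scramble library. The pooled log2 fold change of Rbmx was therefore -0.25 ± 0.34 (SE) and was not called (adjusted p 0.701, edgeR). Rbmxl1 was at 31.3, 36.7, 34.2 and 34.2 CPM in scramble, at 34.2, 37.6, 38.3 and 34.5 CPM in Rbmx knockdown, and at 16.7, 12.9, 14.7 and 12.3 CPM in Rbmxl1 knockdown. Only the Rbmxl1 knockdown libraries stood below scramble, and the pooled value of -0.44 ± 0.28 was not called either (adjusted p 0.351). Reads with several alignments were set aside by the authors, so the level of a retrocopy with near-identical relatives such as Rbmxl1 is uncertain.

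Reads in genes numbered 43096846 to 52241198 per library. Rows that name no gene held 52.3% to 57.4% of each file and were higher in the knockdown library in 8 of 8 same-number pairs. Reads with several alignments made up 20.6% to 26.5% of each file and were higher in knockdown in 7 of 8 pairs. Markers of the line were present: 12 of 12 catecholaminergic neuroblastoma markers were tested, with a summed level of 2122 to 2712 CPM in scramble, 2396 to 3144 CPM in Rbmx knockdown and 2445 to 2785 CPM in Rbmxl1 knockdown. Other cell types had 10 markers each, of which only those tested were summed. The 2 fibroblast genes tested summed to 25.4 to 45.8 CPM and the 4 endothelial genes to 54.8 to 93.1 CPM over all libraries. The 3 glial markers tested summed to 12.9 to 19.9 CPM. The 1 blood and immune marker tested was at 0.453 to 1.48 CPM and the 1 epithelial marker at 0.0864 to 0.460 CPM. Shared and higher were 4 of the 12 neuroblastoma markers and 1 of the 4 endothelial markers, against 5.04% of all genes. In a principal component analysis the first component (37.9% of variance) separated replicates 1 and 2 from 3 and 4. The second (13.3%) was lower in the knockdown library in 8 of 8 pairs, but Rbmxl1 knockdown replicate 2, at 21.2, lay among the scramble libraries (10.9 to 30.7). The part of these measures in the results was not tested, and in bulk RNA fewer cells of a kind and less RNA per cell cannot be told apart.

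The shared response was broad and shallow. Higher in knockdown were 17 of 20 tested genes of glycolysis, 14 of 30 hypoxia targets, 21 of 78 subunit genes of oxidative phosphorylation and 4 of 7 linker histones. Lower were 7 of 18 circadian clock genes, 8 of 20 genome-maintenance genes with long exons, 5 of 21 SR splicing regulators and 39 of 346 zinc finger genes. Of 17569 genes tested, 1763 were called, which is 10%. Of these, 886 were higher (5.04%) and 877 lower (4.99%), and all 1763 moved the same way in both knockdown means. That count is largely fixed by the pooled test, which calls few genes whose knockdown groups move apart. Taken without sign, the log2 fold changes of the 1763 shared genes had a median of 0.28 (quartiles 0.22 and 0.39). A rise of 2-fold or more was found for 30 genes (0.171% of genes tested) and a fall of that size for 24 (0.137%). Most of these genes were scarce: at a mean of at least 5 CPM there were 3 such rises and 0 such falls. At 1.5-fold or more there were 97 in each direction (0.552%). In 1414 of the shared genes (8.05% of genes tested) the change had the same sign in all 8 pairs of a knockdown library with the scramble library of its number, 701 upward and 713 downward. Each scramble library serves in a pair with both knockdowns, and the genes were called on the same values. The agreement is therefore partly fixed by the call. In 339 shared genes the 8 knockdown libraries did not overlap with the 4 scramble libraries. Such separation was found for 209 genes upward (1.19%) and 211 downward (1.20%) among all genes tested.

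These counts depended on the block and on single libraries. Without the block 1 gene was called, Pccb, with 2299 genes at an unadjusted p under 0.05, against 4606 with the block and 878 that chance would give. Leaving out 1 scramble library lowered the count to 674 without replicate 1, 1097 without replicate 2, 456 without replicate 3 and 815 without replicate 4, and leaving out Rbmxl1 knockdown replicate 2 raised it to 2931. Restricted to replicates 3 and 4, edgeR called 1296 genes; restricted to replicates 1 and 2 it called 0, with 2501 at an unadjusted p under 0.05. The difference in response between these replicate sets was itself tested: edgeR called 0 genes (0.00%; 1188 at an unadjusted p under 0.05) and DESeq2 called 39. In a fit that kept the knockdowns apart and set both against the same scramble libraries, 1467 genes (8.35%) were called in Rbmx knockdown and 783 (4.46%) in Rbmxl1 knockdown. Between the knockdowns 2 genes (0.0114%) were called, Rbmx and Rbmxl1.

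**Figure D1:**
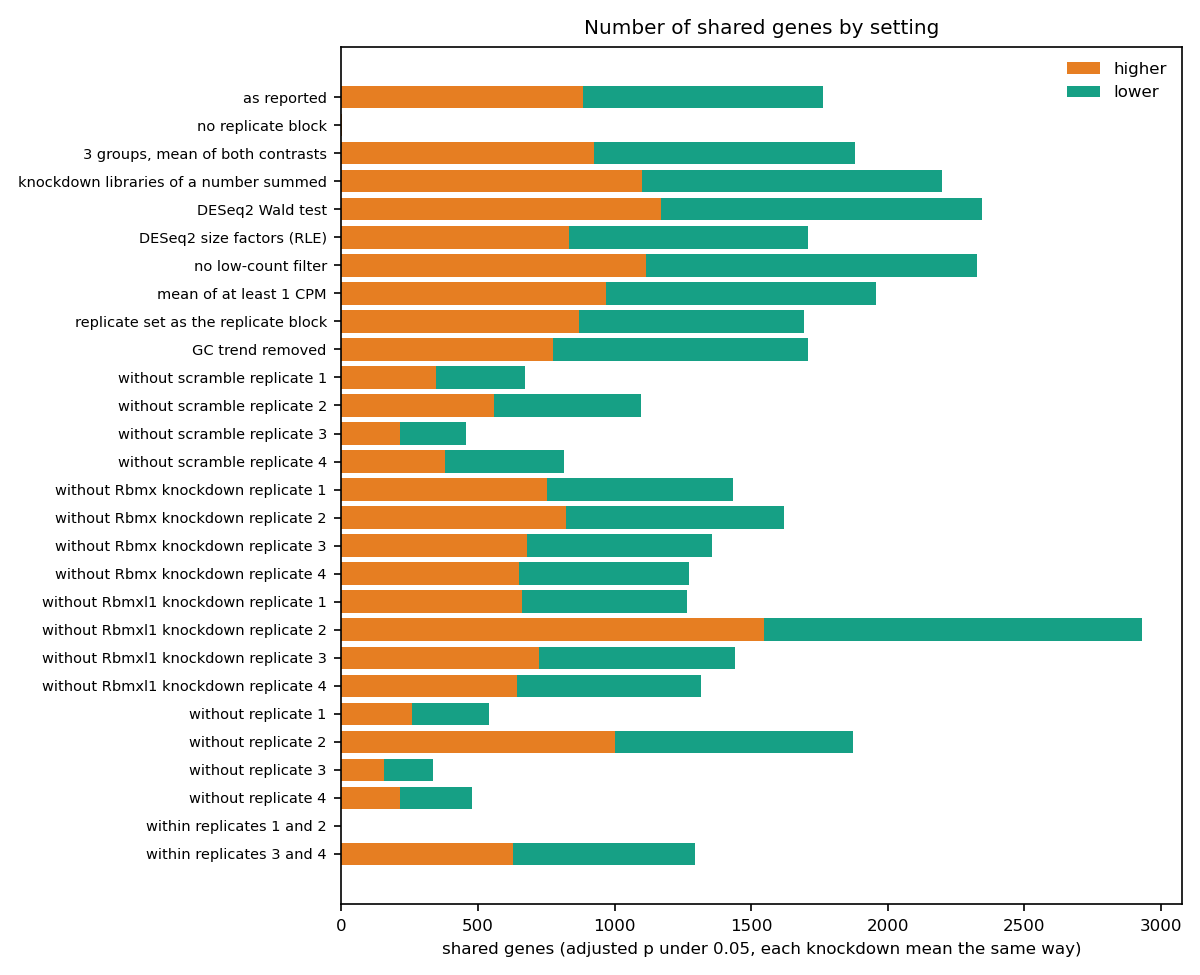
Number of shared genes (x axis) under each way of fitting the comparison (rows), split into higher (orange) and lower (green) in knockdown. The count was 1763 as reported, 1 without the replicate block, 456 without scramble replicate 3 and 2931 without Rbmxl1 knockdown replicate 2.

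Pccb, a subunit of the mitochondrial propionyl-CoA carboxylase, was the gene called even without the block. It was at 10.5, 10.8, 10.8 and 10.2 CPM in scramble, at 15.4, 17, 14.9 and 17.6 CPM in Rbmx knockdown, and at 15.8, 14.6, 16.7 and 16.4 CPM in Rbmxl1 knockdown. All 8 knockdown libraries stood above all 4 scramble libraries. The log2 fold change was 0.60 ± 0.07 (adjusted p 0.00056 in edgeR with the block and 0.0252 without it). Pccb was named after its values were seen.

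Among the largest shared changes in protein-coding genes with a mean of at least 5 CPM, Kbtbd11, which encodes a protein with kelch and BTB domains, rose most. It was at 12.5, 11.2, 3.64 and 3.65 CPM in scramble replicates 1 to 4, at 20.5, 34.3, 13.3 and 6.82 CPM in Rbmx knockdown, and at 36.0, 32.5, 13.6 and 6.33 CPM in Rbmxl1 knockdown. The groups overlapped through replicate 4 of each knockdown, but every knockdown library was above the scramble library of its number. The log2 fold change of Kbtbd11 was 1.37 ± 0.15 (adjusted p 0.000454, edgeR). Plekha2, a phosphoinositide-binding adaptor, showed the same split by replicate number, at 66.0, 60.4, 19.9 and 19.2 CPM in scramble and 30.5 to 127 CPM in knockdown, a change of 0.88 ± 0.11. Both genes overlap annotated genes on the opposite strand, and whether counting used strand is not given in the sources used here, so their counts are uncertain.

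Crebrf, a regulator of the CREB3 factors of the unfolded protein response, fell with no overlap between groups. Its scramble libraries were at 72.0, 66.6, 54.5 and 54.2 CPM, its Rbmx knockdown libraries at 48.4, 40.3, 27.2 and 30.6 CPM and its Rbmxl1 knockdown libraries at 47.2, 50.5, 28.8 and 33.1 CPM. The highest knockdown library was thus below the lowest scramble library. The log2 fold change of Crebrf was -0.72 ± 0.07 (adjusted p 0.000114, edgeR). Other large falls were those of Col11a2, a fibrillar collagen chain (-0.95 ± 0.20), Apoe, a lipid carrier (-0.80 ± 0.21), Id4, an inhibitor of basic helix-loop-helix factors (-0.64 ± 0.11), and Fbxo32, a ubiquitin ligase subunit (-0.63 ± 0.10). Of these, Col11a2 had scramble libraries at 12.8 ± 4.05 CPM (SD, n = 4), against 5.88 ± 1.19 CPM in Rbmx knockdown and 7.22 ± 2.28 CPM in Rbmxl1 knockdown. Impact, a translational regulator that acts on GCN2, fell with no overlap between groups, from 268 ± 9.46 CPM in scramble to 182 ± 30.1 CPM in Rbmx and 182 ± 10.5 CPM in Rbmxl1 knockdown (-0.56 ± 0.07 on the log2 scale). Impact overlaps 1 annotated gene on its strand.

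**Figure D2:**
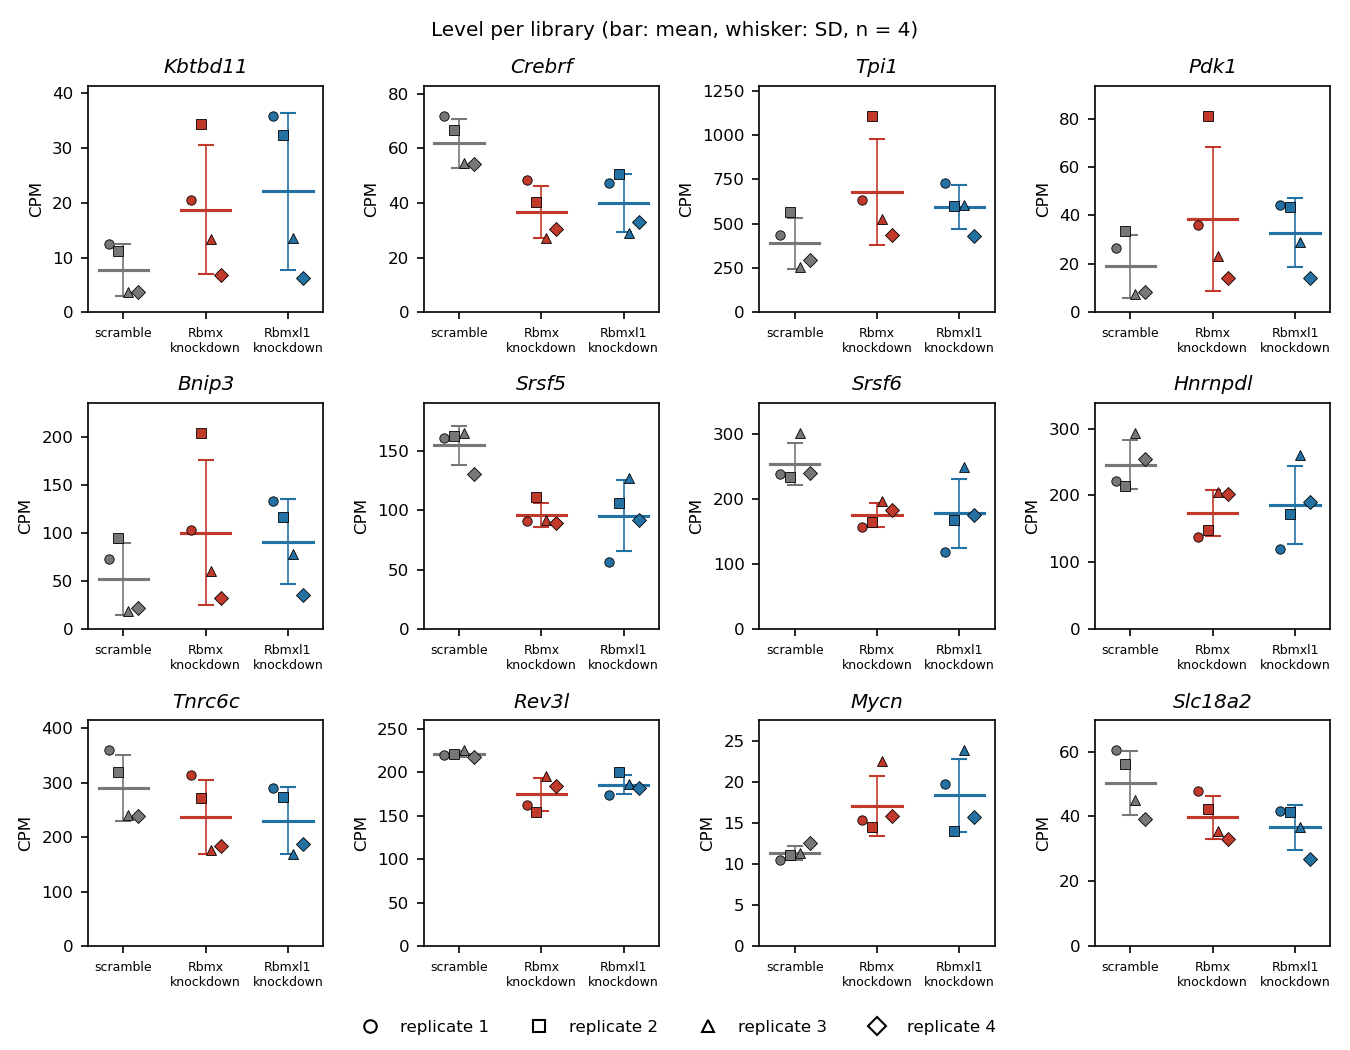
Level of 12 genes in each library (y axis, CPM, from 0) by group (x axis), with the mean and SD of 4 libraries and the replicate number as the point shape. Crebrf and Srsf5 show knockdown libraries below every scramble library, while in Kbtbd11, Tpi1, Pdk1 and Bnip3 the knockdown libraries of replicate 4 lie within the scramble range.

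Glycolysis converts glucose to pyruvate, and most of its enzyme genes, with the glucose transporters, are known targets of the hypoxia-inducible factor HIF-1. In this list of 20 genes, all tested, 17 were shared and higher and none was lower, against 5.04% higher over all genes. The list's median log2 fold change was 0.50, beside 0.0049 over all genes tested. The rise covered uptake by the transporters Slc2a1 (0.67 ± 0.12) and Slc2a3 (0.49 ± 0.09), and phosphorylation by the hexokinases Hk1 (0.22 ± 0.05) and Hk2 (0.35 ± 0.08). It also covered the middle and late enzymes Aldoa (0.51 ± 0.10), Pgk1 (0.65 ± 0.12), Eno1 (0.54 ± 0.11) and Pkm (0.42 ± 0.09), and lactate formation by Ldha (0.56 ± 0.12). The members not called were Pfkm (0.19, adjusted p 0.0673), Pfkp (0.16, 0.0825) and the regulatory enzyme Pfkfb3 (-0.09, 0.288).

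Tpi1, triosephosphate isomerase, was at 437, 568, 257 and 294 CPM in scramble, at 635, 1111, 527 and 439 CPM in Rbmx knockdown, and at 733, 602, 603 and 431 CPM in Rbmxl1 knockdown. Each knockdown library was above the scramble library of its number, although Rbmx knockdown replicates 3 and 4 and Rbmxl1 knockdown replicate 4 lay within the scramble range. The log2 fold change was 0.73 ± 0.13 (adjusted p 0.0034, edgeR). Pdk1, the kinase that shuts off pyruvate dehydrogenase, was at 26.6, 33.5, 7.41 and 8.40 CPM in scramble, at 36.1, 81.3, 23.2 and 14.0 CPM in Rbmx knockdown, and at 44.5, 43.4, 29.1 and 14.2 CPM in Rbmxl1 knockdown. Here the spread between replicate numbers within scramble was larger than the knockdown change of 0.98 ± 0.17 (adjusted p 0.00379). Over the 8 same-number pairs the median change of the glycolysis list ran from 0.06 in Rbmxl1 knockdown replicate 2 to 0.75 in Rbmx knockdown replicate 2. Without scramble replicate 3 the number of shared rises fell to 9, and without Rbmxl1 knockdown replicate 2 it was 19. Several glycolytic genes have processed pseudogenes, and reads that aligned to both were set aside by the authors, so their absolute levels are uncertain.

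The hypoxia list held HIF target genes outside the glycolytic chain, of which 30 of 30 were tested. There, 14 were shared and higher and 1 lower, with a median of 0.26. The HIF prolyl hydroxylases, which mark HIF for degradation and are themselves induced by it, rose: Egln1 by 0.40 ± 0.09 and Egln3 by 0.99 ± 0.20. So did the collagen prolyl hydroxylases P4ha1 (0.45 ± 0.09) and P4ha2 (0.38 ± 0.09), the carbonic anhydrase Car12 (0.59 ± 0.10), the stress-response gene Ndrg1 (0.57 ± 0.10) and the mitochondrial protein gene Fam162a (0.59 ± 0.12). The hormone gene Stc2 was the member that fell (-0.30 ± 0.05). Known targets that were not called included Vegfa (-0.12, adjusted p 0.306), Kdm3a (-0.02, 0.886), Ddit4 (0.10, 0.287) and Bnip3l (0.13, 0.376). The list's count of rises was 9 without scramble replicate 1, 9 without replicate 2, 9 without replicate 3 and 18 without Rbmxl1 knockdown replicate 2.

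Promoter sequences are shown for 5 of the members with the largest rises, because HIF binds the core letters ACGTG or GCGTG. Each run covers 250 bases before to 50 bases after a RefSeq gene start on GRCm38.p6, written 5′ to 3′ on the gene's strand, with every ACGTG or GCGTG on either strand in capitals, so that CACGT and CACGC appear for the opposite strand and neighbouring cores merge. Ankrd37, an ankyrin repeat gene, lies at chr8:45999801-46000100 (minus strand) and Egln3 at chr12:54203825-54204124 (minus). Pdk1 lies at chr2:71872974-71873273 (plus, the first of its annotated starts), Adm, the adrenomedullin hormone gene, at chr7:110627407-110627706 (plus), and Bnip3, a mitophagy receptor, at chr7:138909457-138909756 (minus).
Ankrd37: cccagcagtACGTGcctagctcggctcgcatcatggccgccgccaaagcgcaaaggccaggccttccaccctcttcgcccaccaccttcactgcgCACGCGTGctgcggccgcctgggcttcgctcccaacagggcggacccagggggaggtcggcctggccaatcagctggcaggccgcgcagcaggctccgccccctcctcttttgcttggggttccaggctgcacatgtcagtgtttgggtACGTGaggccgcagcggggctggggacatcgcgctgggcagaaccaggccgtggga
Egln3: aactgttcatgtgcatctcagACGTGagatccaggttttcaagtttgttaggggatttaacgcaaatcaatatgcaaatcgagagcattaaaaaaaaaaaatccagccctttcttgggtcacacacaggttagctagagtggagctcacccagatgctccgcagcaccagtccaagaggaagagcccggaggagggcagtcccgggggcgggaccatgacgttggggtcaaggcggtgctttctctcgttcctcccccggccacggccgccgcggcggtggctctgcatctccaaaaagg
Pdk1: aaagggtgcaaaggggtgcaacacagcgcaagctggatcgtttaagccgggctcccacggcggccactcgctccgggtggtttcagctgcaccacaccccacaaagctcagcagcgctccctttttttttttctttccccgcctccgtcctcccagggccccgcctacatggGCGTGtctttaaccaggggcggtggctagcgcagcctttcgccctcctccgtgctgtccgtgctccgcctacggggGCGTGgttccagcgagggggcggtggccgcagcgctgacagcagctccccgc
Adm: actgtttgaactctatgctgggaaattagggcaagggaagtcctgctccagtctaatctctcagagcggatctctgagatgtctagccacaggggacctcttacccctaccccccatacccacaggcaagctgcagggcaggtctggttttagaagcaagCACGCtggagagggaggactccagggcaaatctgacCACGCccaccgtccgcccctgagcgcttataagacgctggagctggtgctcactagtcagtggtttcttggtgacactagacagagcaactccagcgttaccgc
Bnip3: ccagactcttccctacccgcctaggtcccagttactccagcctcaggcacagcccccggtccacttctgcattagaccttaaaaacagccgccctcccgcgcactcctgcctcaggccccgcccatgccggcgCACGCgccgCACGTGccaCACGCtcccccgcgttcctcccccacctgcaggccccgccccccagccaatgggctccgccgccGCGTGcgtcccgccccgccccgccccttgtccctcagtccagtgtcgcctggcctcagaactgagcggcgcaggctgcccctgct
The number of cores was 4 in Ankrd37, 1 in Egln3, 2 at the Pdk1 start shown, 2 in Adm and 5 in Bnip3, where CACGTG counts as a core on each strand. In Pdk1 they lie 78 and 2 bases before the start shown and in Adm 90 and 54 bases before the start. The second annotated start of Pdk1 held 0 cores. Of 32851 promoters of this length in the table, 19.6% held ACGTG, 32.4% GCGTG and 43.8% either core, and of the 13617 promoters of tested genes 24.9%, 49.2% and 60.6%. Of the 31 shared higher members of the glycolysis and hypoxia lists, 28 were matched, with 39 promoters, and 56.4% of these held ACGTG, 53.8% GCGTG and 76.9% either. The other tested members of both lists had 23 promoters, of which 52.2% held ACGTG, 56.5% GCGTG and 78.3% either. Promoters of all shared higher genes held either core in 65.9% of cases and those of shared lower genes in 59.6%. A match of letters is a description of the sequence only.

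Bnip3 was at 72.8, 94.6, 18.9 and 22 CPM in scramble replicates 1 to 4, at 104, 204, 60.9 and 32.6 CPM in Rbmx knockdown, and at 134, 117, 77.9 and 35.5 CPM in Rbmxl1 knockdown. As for Pdk1, the groups overlapped through the low replicates 3 and 4, and all 8 same-number pairs rose (0.96 ± 0.17, adjusted p 0.00428, edgeR). Ankrd37 was scarce, at 2.35, 2.12, 1.37 and 1.64 CPM in scramble, 4.86, 3.37, 2.81 and 3.86 CPM in Rbmx knockdown and 7.96, 6.17, 3.54 and 3.00 CPM in Rbmxl1 knockdown. Its groups did not overlap, and its change was 1.23 ± 0.19 (adjusted p 0.00203). Egln3 was lower still, with scramble libraries at 0.743 to 2.23 CPM and knockdown libraries at 1.04 to 6.18 CPM, and its groups overlapped. So did those of Adm, whose scramble libraries lay at 1.52 to 7.10 CPM and knockdown libraries at 3.37 to 13.8 CPM (0.96 ± 0.15). Slc16a3, the lactate exporter MCT4 and the list member with the most reads, was at 448, 602, 323 and 341 CPM in scramble, at 691, 1323, 620 and 506 CPM in Rbmx knockdown, and at 845, 669, 752 and 476 CPM in Rbmxl1 knockdown. Only replicate 4 of each knockdown overlapped with scramble, and the change of Slc16a3 was 0.77 ± 0.13 (adjusted p 0.0036). Bnip3, Ankrd37 and Adm overlap annotated genes on the opposite strand.

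**Figure D3:**
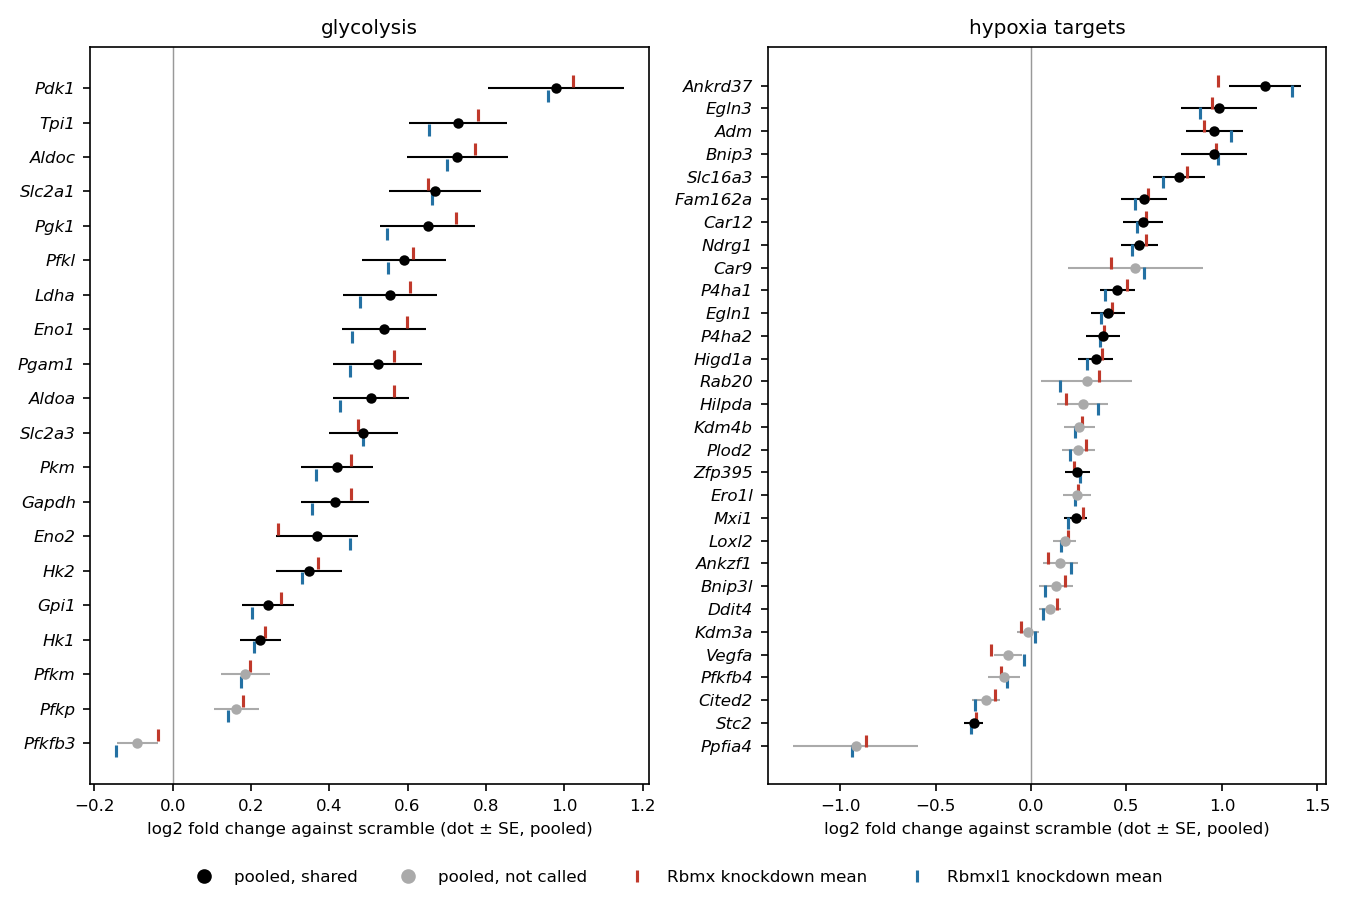
Log2 fold change against scramble (x axis) of every tested member of the glycolysis and hypoxia lists (rows), with the pooled value ± SE (black if shared, grey if not called) and the change of each knockdown mean (red and blue ticks). In glycolysis 17 of 20 members were shared and higher, and in hypoxia 14 of 30, with Stc2 lower.

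Oxidative phosphorylation is carried out by the respiratory chain and ATP synthase of the mitochondrion. Of 78 nuclear-encoded subunit genes tested, 21 were shared and higher by small amounts, none was lower, and 73 had a positive value; the median was 0.16. Pair medians ran from -0.06 in Rbmxl1 knockdown replicate 2 to 0.23, and edgeR called 36 of these genes higher with the Rbmx knockdown alone and 2 with the Rbmxl1 knockdown alone. Ndufv3 of complex I rose by 0.33 ± 0.06, Sdhc of complex II by 0.26 ± 0.07, Uqcr10 of complex III by 0.24 ± 0.06, Cox8a of complex IV by 0.21 ± 0.05 and Atp5g1 of ATP synthase by 0.26 ± 0.05; these subunits were chosen after their values were seen. Of 24 mitochondrially encoded genes tested, 0 were higher and 1 was lower, with a median of -0.04 (3 lower without Rbmxl1 knockdown replicate 1). The count of subunit genes was 3 without scramble replicate 1, 2 without scramble replicate 3, 4 without scramble replicate 4, 11 without Rbmx knockdown replicate 4 and 47 without Rbmxl1 knockdown replicate 2, and DESeq2 called 33, while the median stayed between 0.14 and 0.19 in these fits with a library left out. Cox4i2 and Mgarp, further genes of mitochondrial proteins, were among the largest rises, at 1.03 ± 0.23 and 1.02 ± 0.20. Cox4i2, the subunit used at low oxygen, was at 3.46 ± 2.75 CPM (SD, n = 4) in scramble against 6.59 ± 5.23 CPM in Rbmx knockdown and 6.17 ± 2.37 CPM in Rbmxl1 knockdown.

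Linker histones bind DNA between nucleosomes, and 4 of the 7 tested genes were shared and higher, with a median of 0.41. H1f0, the linker histone of slowly dividing cells, was at 181, 185, 144 and 132 CPM in scramble, at 234, 248, 295 and 215 CPM in Rbmx knockdown, and at 265, 295, 255 and 180 CPM in Rbmxl1 knockdown. Only Rbmxl1 knockdown replicate 4 overlapped with scramble. The change of H1f0 was 0.63 ± 0.08 (adjusted p 0.000568, edgeR), beside rises of 0.47 ± 0.06 for H1fx, 0.43 ± 0.12 for Hist1h1e and 0.41 ± 0.12 for Hist1h1c. Of 65 replication-dependent histone genes, 8 were higher, none was lower and 61 had a positive value, with a median of 0.20; these transcripts mostly lack poly(A) tails and are kept by the ribosomal depletion used here. Their pair medians were 0.05 to 0.44 in Rbmx knockdown and 0.39, -0.11, 0.35 and -0.18 in Rbmxl1 knockdown replicates 1 to 4. With the Rbmx knockdown alone edgeR called 36 of the 65 higher (median 0.30), and with the Rbmxl1 knockdown alone 0 (median 0.09, 49 positive), in a fit that called 426 genes in all. The difference between the knockdowns was not tested for the list. Their count was 0 without scramble replicate 1, 0 without scramble replicate 3, 3 without scramble replicate 4, 5 without Rbmx knockdown replicate 3, 4 without Rbmx knockdown replicate 4, and 5, 22 and 15 without Rbmxl1 knockdown replicates 1, 2 and 4. Other ways of fitting moved it as well, to 28 with the knockdown libraries of a number summed, 33 with no filter on low counts and 5 with the GC trend removed. The linker histone count was 2 without scramble replicate 1, 3 or 4, without Rbmx knockdown replicate 3 or 4, or without Rbmxl1 knockdown replicate 1.

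The catecholaminergic and neuroblastoma regulators, which set the identity of this line, gave 5 rises and 1 fall among 16 tested genes (median 0.13). The median was 0.02 in replicates 1 and 2 and 0.18 in replicates 3 and 4, and the difference was not tested for the list. Mycn, the neuroblastoma oncogene, was at 10.5, 11.1, 11.4 and 12.6 CPM in scramble, 15.4, 14.6, 22.6 and 15.9 CPM in Rbmx knockdown and 19.8, 14.1, 24.0 and 15.7 CPM in Rbmxl1 knockdown. Its groups did not overlap (0.61 ± 0.10, adjusted p 0.00327, edgeR). Ret, a receptor kinase, rose by 0.32 ± 0.08, the transcription factor Hand2 by 0.19 ± 0.05, and the enzymes of catecholamine synthesis Dbh and Ddc by 0.45 ± 0.13 and 0.95 ± 0.22. Slc18a2, the vesicular monoamine transporter, fell from 60.6, 56.2, 45.0 and 39.1 CPM to 47.9, 42.2, 35.5 and 33.1 CPM in Rbmx knockdown and 41.8, 41.2, 36.8 and 26.9 CPM in Rbmxl1 knockdown. Each knockdown library of Slc18a2 was below its same-number scramble library, with overlap between groups (-0.39 ± 0.06, adjusted p 0.00186). The count of rises was 3, 1 and 1 without scramble replicates 1, 3 and 4, and 3 without Rbmx knockdown replicate 3 or Rbmxl1 knockdown replicate 1 or 4, and 3 with the GC trend removed.

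Targets of YAP and of the SRF-actin pathway gave 6 rises and 1 fall among 20 tested genes, with a median of 0.19. They were Flna, an actin cross-linker (0.37 ± 0.07), Cnn2, an actin-binding calponin (0.54 ± 0.09), the matricellular gene Ccn1 (0.73 ± 0.16), Vcl (0.27 ± 0.06), Tpm2 (0.27 ± 0.07) and Lmna (0.25 ± 0.07), and tissue factor F3 fell (-0.27 ± 0.06). Srf itself, listed with the immediate early genes, rose by 0.38 ± 0.05. The count of rises was 3, 2 and 3 without scramble replicates 1, 3 and 4. In signalling lists, 2 of 20 Notch genes were higher (10%) and none lower, and 3 of 21 Wnt genes higher (14.3%) and 2 lower (9.52%). Among TGF-beta and BMP genes 2 of 24 were higher (8.33%) and 3 lower (12.5%). Of 18 MAPK feedback genes 3 were higher (16.7%) and none lower. Over all genes 5.04% were higher and 4.99% lower, and counts this small are not read as the response of a pathway. The MAPK count was 0, 1 and 0 without scramble replicates 1 to 3, 5, 5 and 1 without Rbmx knockdown replicates 1 to 3, and 6 and 1 without Rbmxl1 knockdown replicates 2 and 3, and 4 Wnt genes were lower without Rbmx knockdown replicate 2. The Notch modifier Lfng (0.75 ± 0.09) and the Notch target Hey2 (0.63 ± 0.13) rose, as did the Wnt antagonist Dkk1 (0.66 ± 0.12) and the receptor Fzd2 (0.67 ± 0.12), while Znrf3, which removes Wnt receptors, fell (-0.26 ± 0.05). Lfng was at 5.33, 5.24, 6.76 and 5.30 CPM in scramble, 8.67, 8.18, 13.3 and 9.38 CPM in Rbmx knockdown and 8.51, 8.70, 11.9 and 8.14 CPM in Rbmxl1 knockdown. No knockdown library of Lfng came down to the scramble range.

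On the falling side, SR proteins and their kinases, which bind exonic enhancers and drive splice-site choice, gave large single changes, though a list median no further from 0 than some other lists. Of 21 tested genes of this list, 5 were shared and lower and 1 higher, 19 had a negative value, and the median was -0.15. Srsf5 was at 161, 163, 165 and 130 CPM in scramble, at 90.9, 111, 91.5 and 89.7 CPM in Rbmx knockdown, and at 56.4, 106, 127 and 91.5 CPM in Rbmxl1 knockdown. Its groups did not overlap, and its change was -0.71 ± 0.11 (adjusted p 0.00226, edgeR). This was the largest fall among shared genes of at least 100 CPM that moved the same way in all 8 same-number pairs. Srsf6 was at 238, 234, 302 and 240 CPM in scramble, 157, 165, 196 and 184 CPM in Rbmx knockdown and 119, 168, 249 and 176 CPM in Rbmxl1 knockdown. Only Rbmxl1 knockdown replicate 3 reached the scramble range (-0.54 ± 0.08, adjusted p 0.00127). The kinases Clk1 and Clk4, which phosphorylate SR proteins, fell (-0.41 ± 0.10 and -0.35 ± 0.08), Srsf3 fell (-0.19 ± 0.05) and Srsf9 rose (0.25 ± 0.06), while Srsf2 was at -0.32 (adjusted p 0.0585) and Tra2b, a binding partner of RBMX, at 0.06 (0.565). The number of falls was 2 without scramble replicate 1, 3 without scramble replicate 2 and 13 without Rbmxl1 knockdown replicate 2, and it was 8 with DESeq2, with the knockdown libraries of a number summed or with no filter on low counts. The median was -0.10 without scramble replicate 1.

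Of 27 hnRNP genes tested, 3 were lower (11.1%, against 4.99% of all genes) and none higher, and 15 had a positive value. Hnrnpdl, a paralog of Hnrnpd, was at 222, 214, 294 and 254 CPM in scramble, 138, 149, 206 and 202 CPM in Rbmx knockdown and 120, 172, 261 and 191 CPM in Rbmxl1 knockdown. Only Rbmxl1 knockdown replicate 3 lay within the scramble range (-0.48 ± 0.08, adjusted p 0.00233, edgeR). Hnrnpd and Hnrnph2 fell by smaller amounts (-0.29 ± 0.08 and -0.18 ± 0.05). The median of the hnRNP list was 0.02 and that of the core spliceosome list 0.01, and both changed sign between ways of fitting. In the core spliceosome list 1 of 30 genes was higher and 1 lower (3.33% each way, against 5.04% and 4.99% of all genes). Without Rbmxl1 knockdown replicate 2 this list gave 3 rises. The hnRNP count was 1 without scramble replicate 1, 2 or 3, Rbmx knockdown replicate 3 or Rbmxl1 knockdown replicate 1; without Rbmxl1 knockdown replicate 2 there were 3 rises. With the GC trend removed 1 hnRNP gene was lower.

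Of 17 tested microRNA processing genes, 6 were shared and lower and none higher, 5 had a positive value, and the median was -0.13 (-0.08 without scramble replicate 1). The 6 were Dgcr8 of the microprocessor (-0.33 ± 0.06), its helicase partners Ddx5 (-0.34 ± 0.06) and Ddx17 (-0.30 ± 0.08), the let-7 inhibitor Lin28b (-0.36 ± 0.07), and Tnrc6a and Tnrc6c, scaffolds of the silencing complex (-0.27 ± 0.07 and -0.33 ± 0.05). Tnrc6c was at 360, 320, 240 and 239 CPM in scramble, 314, 272, 177 and 183 CPM in Rbmx knockdown and 290, 274, 168 and 188 CPM in Rbmxl1 knockdown. The replicate sets differed more than the groups, and each knockdown library was below its same-number scramble library (adjusted p 0.00157, edgeR). All groups expressed artificial microRNAs, the control included. In nonsense-mediated decay, which destroys transcripts with early stop codons, 3 of 18 genes were lower and 1 higher, and 6 had a positive value. Among them Smg6, its endonuclease, fell by 0.48 ± 0.06 from 90.3 ± 9.97 CPM (SD, n = 4) to 63.7 ± 8.24 and 66.3 ± 8.93 CPM with no overlap between groups. Upf3b fell by 0.41 ± 0.09, and each of the scramble replicates 1, 3 and 4, when left out, took this count to 1.

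The circadian clock is a loop in which the activators CLOCK and ARNTL drive their own repressors. All 18 tested clock genes had a negative value, 7 were shared and lower and none higher (median -0.20). Pair medians ran from -0.32 to -0.11 in 7 of the pairs and stood at 0.01 in Rbmxl1 knockdown replicate 4. The 7 comprised both activators (Clock -0.31 ± 0.07, Arntl -0.22 ± 0.06), the repressors Cry1 (-0.20 ± 0.06), Nr1d2 (-0.25 ± 0.04) and Nfil3 (-0.20 ± 0.05), and the output factors Hlf (-0.33 ± 0.10) and Tef (-0.24 ± 0.07). Clock was at 73.7, 76.2, 83.3 and 80.9 CPM in scramble, 48.0, 54.6, 78.2 and 71.7 CPM in Rbmx knockdown and 46.9, 68.3, 77.3 and 72.3 CPM in Rbmxl1 knockdown. Replicates 3 and 4 of knockdown came close to or into the scramble range, and replicate 1 was lowest. The Per genes were not called (Per1 -0.22, adjusted p 0.315; Per2 -0.08, 0.525; Per3 -0.01, 0.944). The number of falls was 1, 3, 2 and 3 without scramble replicates 1 to 4, 4, 4, 4 and 3 without Rbmx knockdown replicates 1 to 4, and 3 without Rbmxl1 knockdown replicate 1.

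The list of genome-maintenance genes with long exons, a class for which RBMX is known, gave 8 shared falls and no rise among 20 tested genes (median -0.14). The length and position of the exons of its members were not checked here. Rev3l, the catalytic subunit of the translesion polymerase zeta, was at 219, 221, 226 and 218 CPM in scramble, 163, 155, 196 and 184 CPM in Rbmx knockdown and 174, 200, 186 and 182 CPM in Rbmxl1 knockdown. The scramble libraries were close together and above every knockdown library (-0.30 ± 0.06, adjusted p 0.00628, edgeR). The other falls were Brca2 (-0.39 ± 0.12), Atrx (-0.25 ± 0.05), Topbp1 (-0.24 ± 0.05), Asxl1 (-0.24 ± 0.06), Brca1 (-0.22 ± 0.06), Setd2 (-0.19 ± 0.05) and Ercc6 (-0.19 ± 0.06). Atm (-0.03, adjusted p 0.760), Prkdc (-0.01, 0.961), Rif1 (-0.02, 0.865) and Mki67 (-0.01, 0.955) were not called. The number of falls was 4, 4, 1 and 3 without scramble replicates 1 to 4, and 5 without Rbmx knockdown replicate 1, 3 or 4 or Rbmxl1 knockdown replicate 1, 3 or 4. Gene-level counts do not show exon usage. Among 30 homologous recombination and Fanconi genes 1 was higher and 1 lower (3.33% each way, against 5.04% and 4.99% of all genes).

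Zinc finger genes of the Zfp series, mostly transcriptional repressors, gave 39 shared falls and 5 rises among 346 tested genes (11.3% lower against 4.99% of all genes), with a median of -0.08 and a negative value in 242. The share of falls lay above that of all genes, but no test of that difference was made. Zfp512b fell by 0.46 ± 0.08, Zfp382 by 0.33 ± 0.06 and Zfp655 by 0.34 ± 0.06; they were chosen after their values were seen. The number of falls was 14, 23, 13 and 18 without scramble replicates 1 to 4 and 25 without Rbmxl1 knockdown replicate 3, and the number of rises 0, 2, 1 and 3 without scramble replicates 1 to 4 and 3 without Rbmx knockdown replicate 3, and 8 with DESeq2 or with no filter on low counts. Polycomb and other chromatin regulators gave 5 falls and no rise among 33 genes, among them Cbx7 (-0.41 ± 0.10), Kmt2a (-0.24 ± 0.07) and Bmi1 (-0.19 ± 0.05). That count was 2, 2, 0 and 2 without scramble replicates 1 to 4, and 3 without Rbmx knockdown replicate 3 or 4 or Rbmxl1 knockdown replicate 1, 3 or 4. Of 16 abundant nuclear long non-coding RNAs, Neat1 (-0.68 ± 0.17), Xist (-0.41 ± 0.11), Malat1 (-0.30 ± 0.08) and Tug1 (-0.24 ± 0.07) were lower and none was higher. Malat1 was at 2954, 2855, 2292 and 2657 CPM in scramble, 1782, 2417, 1721 and 2363 CPM in Rbmx knockdown and 2269, 2998, 1800 and 2350 CPM in Rbmxl1 knockdown. Rbmxl1 knockdown replicate 2 was the highest Malat1 value of all 12 libraries, and the other 7 knockdown libraries were below their scramble pair. The count of these RNAs was 0, 1 and 0 without scramble replicates 1, 3 and 4, and 2 without Rbmx knockdown replicate 1 or 3, without Rbmxl1 knockdown replicate 4 or with the replicate set as block. The median of this list was -0.17, and -0.07 without scramble replicate 1. Its pair medians were -0.77, -0.25, -0.02 and -0.02 in Rbmx knockdown replicates 1 to 4 and -0.37, 0.18, -0.03 and -0.08 in Rbmxl1 knockdown replicates 1 to 4, so values far from 0 came from replicates 1 and 2 only.

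With each knockdown set alone against the 4 scramble libraries, which both fits share, edgeR called fewer genes for Rbmxl1 knockdown (426) than for Rbmx knockdown (2190). Rises numbered 17 with Rbmx knockdown alone and 12 with Rbmxl1 knockdown alone in glycolysis, 17 and 11 among hypoxia targets, 6 and 2 among linker histones, 6 and 4 among YAP and SRF-actin targets, and 6 and 1 among the catecholaminergic regulators. Falls numbered 10 and 2 among SR regulators, 6 and 3 in microRNA processing, 8 and 3 among genome-maintenance genes, 5 and 2 among Polycomb and chromatin regulators and 46 and 8 among zinc finger genes. In the circadian list falls numbered 7 and 0 and among the long non-coding RNAs 5 and 0, with medians of -0.19 and -0.18 for the first list and -0.19 and -0.12 for the second. The difference between the knockdowns was not tested for any of them.

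**Figure D4:**
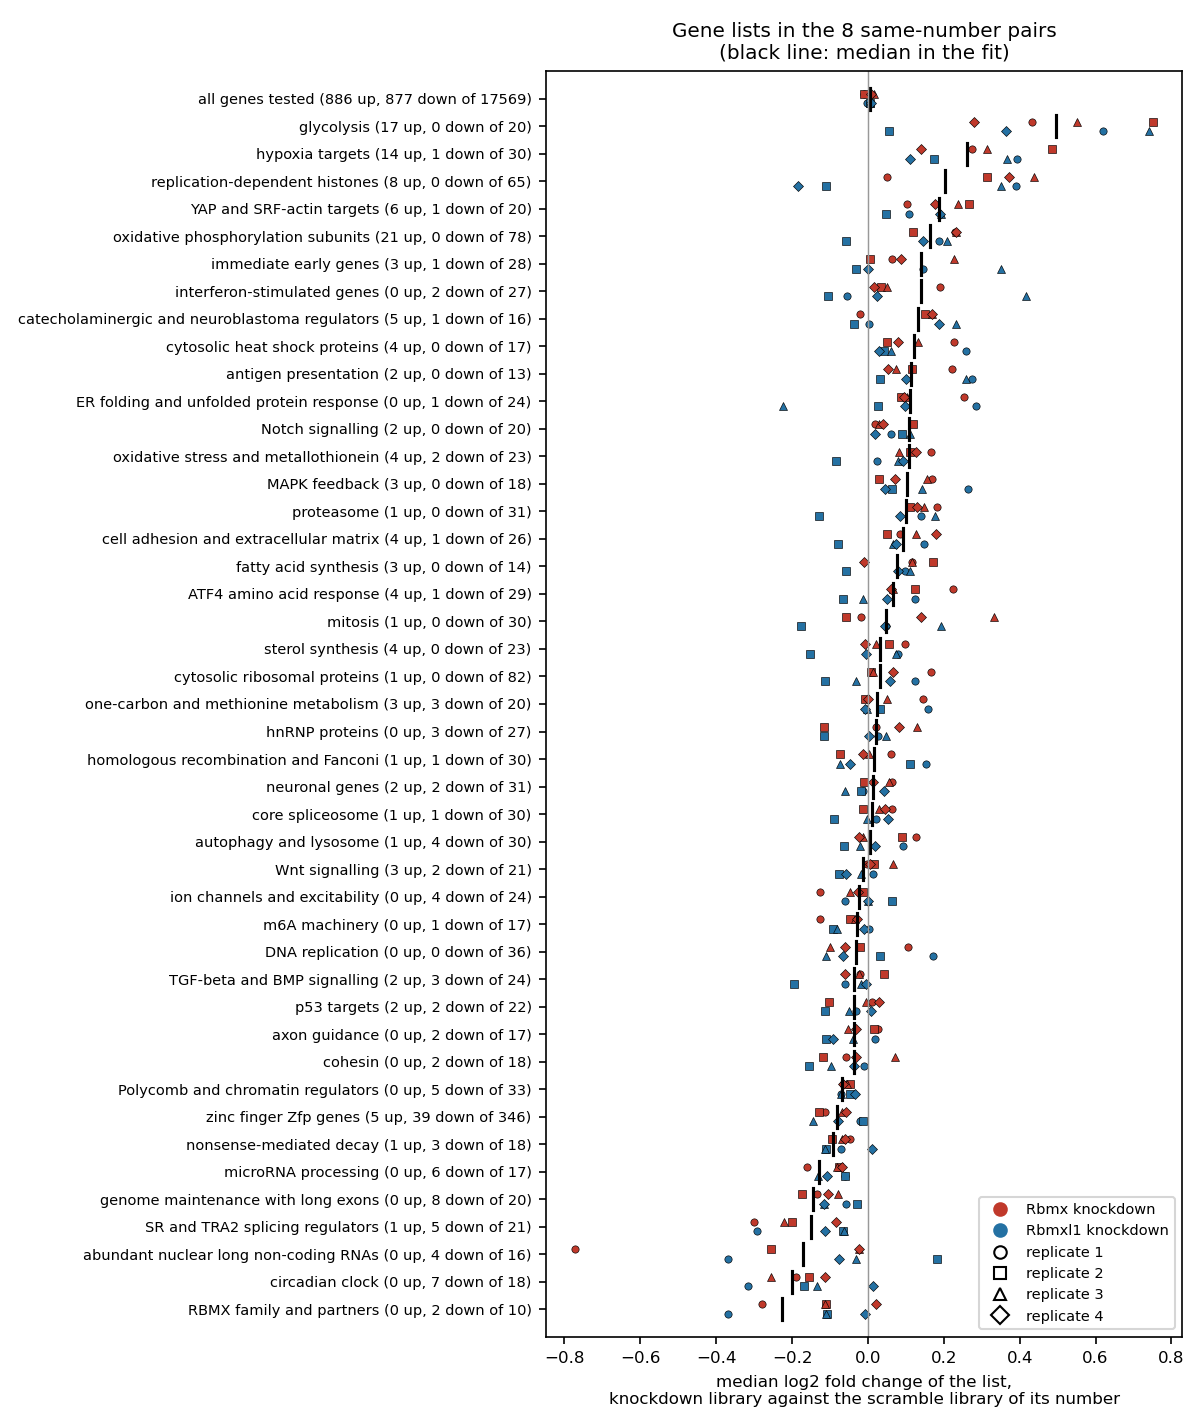
Median log2 fold change of each gene list with at least 10 tested members (rows) in each knockdown library against the scramble library of its number (x axis; red Rbmx, blue Rbmxl1 knockdown, shape for the replicate number), with the pooled median as a black line and the counts of shared genes in the labels. Glycolysis had the highest pooled median of these lists, at 0.50, and Rbmxl1 knockdown replicate 2 the lowest of its 8 pair medians, at 0.06.

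The direction of the shared change went with gene structure. When 12720 protein-coding genes were put in 4 bins of nearly equal size by their longest annotated exon, 9.06% were shared and higher and 2.14% lower in the bin with the shortest exons (up to 1052 bases). In the bin with the longest (over 3136 bases) 4.28% were higher and 12.3% lower. Bins by gene length gave 9.75% higher and 2.58% lower for the shortest genes and 3.59% and 9.31% for the longest. By GC content of the exons, 2.30% were higher and 9.59% lower in the lowest bin and 10.2% and 2.55% in the highest. Pair medians did not all follow these trends. The lowest and highest GC bins were at 0.06 and -0.04 in Rbmx knockdown replicate 3 and at 0.03 and 0.02 in Rbmxl1 knockdown replicate 1. The lowest bin lay below the highest in the remaining pairs. The shortest and longest genes were at 0.01 and 0.02 in Rbmx knockdown replicate 3, while the shortest lay above the longest in the other pairs. Shared higher genes had a median length of 14.7 kb, a median longest exon of 1519 bases and a median GC content of 53.5%, shared lower genes 38.5 kb, 3121 bases and 46.9%, and all tested protein-coding genes 23.2 kb, 1960 bases and 50.2%. With gene length and GC content both split at their medians, short genes of high GC content gave 10.8% higher and 2.51% lower, short genes of low GC content 4.90% and 6.08%, long genes of high GC content 7.58% and 5.51%, and long genes of low GC content 2.85% and 10.3%. With the GC trend of each library removed, the bin with the shortest exons gave 191 higher and 103 lower genes in place of 288 and 68, and the bin with the longest 157 and 342 in place of 136 and 390. The counts moved with scramble libraries too: without scramble replicates 1 to 4 the bin with the shortest exons gave 104, 212, 59 and 106 higher genes and the bin with the longest 172, 231, 124 and 194 lower genes, and without Rbmxl1 knockdown replicate 2 these were 515 and 504.

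**Figure D5:**
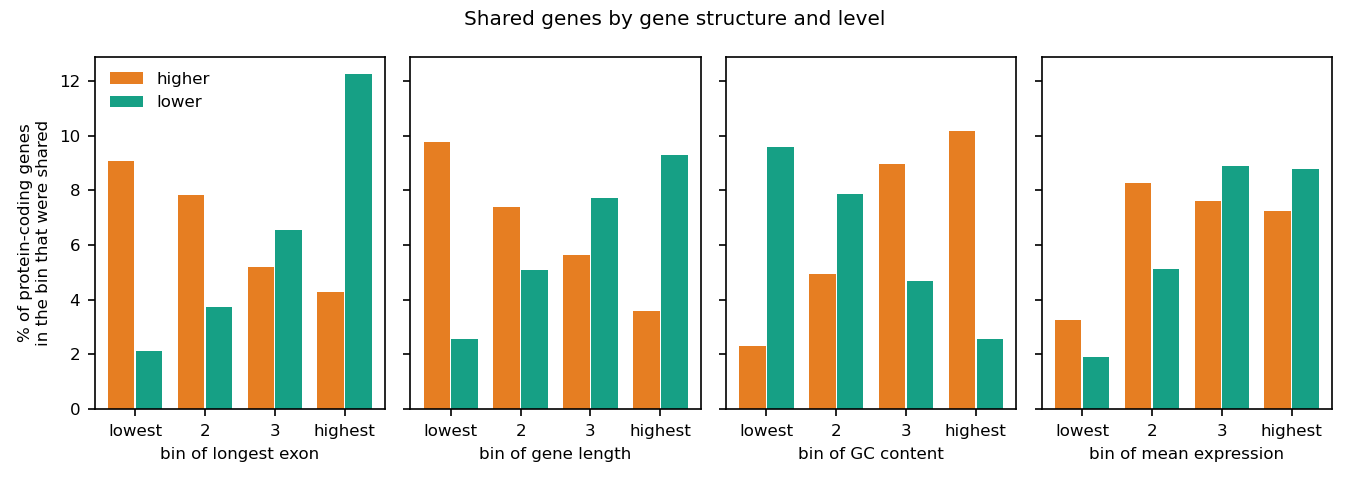
Percentage of protein-coding genes that were shared and higher (orange) or lower (green) in knockdown (y axis, from 0) in 4 bins of the longest exon, gene length, GC content and mean expression (x axis). The share of lower genes was 2.14% in the bin with the shortest exons and 12.3% in the bin with the longest.

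By biotype, 838 of 12720 protein-coding genes were shared and higher (6.59%) and 785 lower (6.17%). Of 1438 processed pseudogenes 17 were higher (1.18%) and 12 lower (0.83%), and of 564 lincRNAs 12 (2.13%) and 25 (4.43%). Of 1123 loci annotated as to be experimentally tested (TEC) 2 were higher (0.178%) and 22 lower (1.96%). In these 3 non-coding biotypes each share lay below that of all genes, 5.04% higher and 4.99% lower. The median of the TEC loci was -0.35 in replicates 1 and 2 and -0.0002 in replicates 3 and 4. Outside protein-coding genes, the largest rises at a mean of at least 1 CPM with 8 of 8 pairs up were those of the lincRNA Gm807 (1.24 ± 0.22, from 0.608 ± 0.06 CPM to 1.38 ± 0.549 and 1.56 ± 0.298 CPM) and of Gm6277 (0.85 ± 0.21). The largest falls by the same rule were those of Gm49745 (-0.92 ± 0.24) and Gm37121 (-0.86 ± 0.17). Of the 1763 shared genes, 54.7% overlap another annotated gene, against 57.8% of genes tested, and their counts are uncertain without the strand setting. Among genes given above by library, Tpi1, H1f0, Slc18a2, Smg6, Clock, Rev3l and Malat1 are of this kind in addition to those already marked.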

How the data were processed

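The authors deposited raw read counts, as whole numbers, for 55401 Ensembl gene identifiers in every library. The submitters' processing notes name cutadapt, STAR 2.5.3a, HTSeq 0.6.1p1, R 3.3.2, DESeq2 1.16.1 and the build mm10, without role or order; the annotation and strand setting are not given in the sources used here. Rows that name no gene (52.3% to 57.4% of each file) were left out. Columns of other samples numbered 0.

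Names, positions, exon lengths and GC content were taken from GENCODE M21 on GRCm38, which held 55141 identifiers. Genes passed edgeR's filterByExpr with the 2 pooled groups (minimum count 10, minimum total 15; 17569 genes), library sizes were scaled by TMM, and edgeR 4.0.16 in R 4.3.3 was fitted to the 12 libraries with terms for the replicate number and for knockdown (7 residual degrees of freedom), with p-values adjusted over all genes. SE is the log2 fold change divided by the square root of F. CPM values were computed here from TMM-scaled library sizes; intervals of counting error are not given, and depth is stated in reads per library. The fits were tested on simulated data.

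The replicate numbers were checked for pairing on deviations of log2 CPM (prior count 2) from group means. The correlation r was 0.195 to 0.524 over 12 pairs with the same number in different groups. It was -0.573 to 0.431 over 36 pairs with different numbers in different groups, and the block was kept. These ranges overlap, and the 36 pairs mix libraries of the same and of different replicate sets, which the first principal component separates. The check therefore cannot tell pairing by number from a shared replicate set. With the replicate set as block edgeR called 1693 genes, against 1763 with the number. Support for the block comes from these values, not from the labels, and does not reach beyond the replicate set. The common dispersion was 0.00974 with the block and 0.0338 without.

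Genes were named by rule: the targets; the 10 largest rises and falls among protein-coding genes of at least 5 CPM, the 4 largest of other biotypes at 1 CPM, and the 5 largest at 100 CPM, all same-signed in 8 of 8 pairs; and up to 6 called members of each list by p, with its most abundant member. Exceptions are said to be chosen after their values were seen, and further members of the glycolysis, hypoxia, microRNA, clock and genome-maintenance lists are given to account for the list. The comparison, the members and the gene lists were chosen with earlier results of these data known. Lists were described by counts and medians, with no test, and some of their members are not reported here. Promoters came from a RefSeq table for GRCm38.p6. Alternatives covered the block, pooling, DESeq2 1.42.0, its size factors, filters, GC content and left-out libraries.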

Additional observations from a re-analysis of the deposited data

Results flagged for a closer look

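Of 102 groups of 4 libraries examined, 7 held a library that stood far from the other 3; chance alone gives about 1 such group in 20. Srsf5 was low in scramble replicate 4 (130.1 CPM against 160.6 to 165.3) and high in Rbmx knockdown replicate 2 (110.8 against 89.69 to 91.54). Srsf6 was high in scramble replicate 3 (301.9 CPM against 234.4 to 240.0). Mycn was high in Rbmx knockdown replicate 3 (22.59 CPM against 14.58 to 15.89). Lfng was high in scramble replicate 3 (6.758 CPM against 5.235 to 5.334) and in Rbmxl1 knockdown replicate 3 (11.87 against 8.145 to 8.695). The median change of the microRNA processing list was lowest in Rbmx knockdown replicate 1 (-0.1615 against -0.08134 to -0.0682 on the log2 scale).

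Both targeted genes differed between the knockdowns in the direct comparison. The log2 fold change of Rbmx in Rbmx knockdown minus Rbmxl1 knockdown was -1.658, and that of Rbmxl1 was 1.354. These were the 2 genes called by edgeR in that comparison (0.0114% of genes tested).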

How the results depend on the processing

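The count of 1763 called genes, all shared, was 1 without the replicate block and 0 within replicates 1 and 2, and 426 with the Rbmxl1 knockdown alone. Leaving out scramble replicates 1 to 4 in turn gave 674, 1097, 456 and 815 called and shared genes, leaving out 1 knockdown library 1264 to 2931 (the highest without Rbmxl1 knockdown replicate 2), and leaving out replicate numbers 1 to 4 from all groups 542, 1873, 337 and 479. The other settings kept it within 1.5 times: 1883 called (1881 shared) with 3 groups, 2202 (2200) with the knockdown libraries of a number summed, 2345 with DESeq2, 1709 with its size factors, 2331 (2328) without a filter on low counts, 1958 at a mean of at least 1 CPM, 1693 with the replicate set as block, 1708 with the GC trend removed, 1296 within replicates 3 and 4, and 2190 with the Rbmx knockdown alone. With the GC trend removed, 1360 of its 1708 genes were among the 1763. The test of a difference between replicate sets gave 39 genes with DESeq2 and 0 with edgeR. The cause of these differences was not tested. Rbmx, at -0.25 pooled, was at 0.36 with the Rbmxl1 knockdown alone, where the libraries that target Rbmx were left out. Of 175 shared genes named by the rule, 175 lost their call without the block, and 0 lost it without Rbmxl1 knockdown replicate 2; 103 lost it without scramble replicate 3 and 30 with the GC trend removed. The medians of the glycolysis list (0.43 to 0.56), the hypoxia list (0.21 to 0.36), the clock list (-0.21 to -0.12) and the SR list (-0.18 to -0.10) kept their sign in every setting run.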

Other observations

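Some gene groups outside the report showed smaller or mixed shared changes. The cytosolic heat shock list gave 4 rises and no fall among 17 tested genes, namely the chaperone gene Hsp90ab1 (0.18 ± 0.05) and the co-chaperone genes Stip1 (0.20 ± 0.04), Fkbp4 (0.22 ± 0.05) and Hsph1 (0.31 ± 0.06). Its count was 1, 2 and 1 without scramble replicates 1, 3 and 4 and 7 without Rbmxl1 knockdown replicate 2. In the ATF4 list the serine and asparagine synthesis genes Phgdh (0.20 ± 0.05), Psat1 (0.19 ± 0.06) and Asns (0.22 ± 0.06) and the proline synthesis gene Aldh18a1 (0.25 ± 0.05) rose, while Slc7a11, the cystine transporter, fell (-0.35 ± 0.05). Slc7a11 had scramble libraries at 246 ± 35.2 CPM (SD, n = 4), against 190 ± 23.9 CPM in Rbmx knockdown and 194 ± 8.41 CPM in Rbmxl1 knockdown; it overlaps other annotated genes. The count of ATF4 rises was 0, 2, 1 and 1 without scramble replicates 1 to 4, 1, 1, 1 and 2 without Rbmx knockdown replicates 1 to 4, and 1, 8 and 1 without Rbmxl1 knockdown replicates 1, 2 and 4. It was 7 with no filter on low counts and 2 with the GC trend removed.

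In one-carbon and methionine metabolism 3 genes rose and 3 fell among 20 tested. Mat2a, which makes S-adenosylmethionine, fell (-0.41 ± 0.09), as did the scarce Gnmt (-1.36 ± 0.26, at 1.26 CPM in scramble), and Mtrr (0.28 ± 0.05), Mthfd1l (0.24 ± 0.06) and Cbs (0.32 ± 0.09) rose. The rises numbered 1 without scramble replicate 1, 2 or 3 or Rbmxl1 knockdown replicate 1, and the falls 1 without scramble replicate 1 or 3. The 82 cytosolic ribosomal protein genes gave 1 rise and no fall, and the 31 proteasome genes 1 rise, Psma6 (0.19 ± 0.06), although 30 of them had a positive value (median 0.10). Of 30 mitosis genes 1 rose, Ccnb2 (0.28 ± 0.07). Without Rbmxl1 knockdown replicate 2 the rises in these lists numbered 11, 14 and 5, and the proteasome rises numbered 4 without scramble replicate 2. Of 228 solute carrier genes 25 were higher (10.96%, against 5.04% of all genes), with a list median of 0.02. Another 15 were lower (6.58%, near the 4.99% of all genes). The share of rises lay above that of all genes, but no test of that difference was made. Without scramble replicates 1, 3 and 4 the rises numbered 13, 9 and 14, and without Rbmxl1 knockdown replicate 2 they numbered 41. Without scramble replicate 3 the falls numbered 9. Of 27 interferon-stimulated genes 20 had a positive value (median 0.14, and 0.09 without scramble replicate 3) and none was called higher by edgeR, while Eif2ak2 (-0.32 ± 0.06) and Adar (-0.20 ± 0.05) were lower, a share of 7.41% near the 4.99% of all genes.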
